A study of Mus musculus with 30 samples.

Results

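The 10 genes studied here are switched on by canonical Wnt signalling, and most of them then act back on the pathway. They were followed through the differentiation of mouse embryonic stem cells into neuromesodermal progenitors (NMPs) with and without Nr6a1, an orphan nuclear receptor. The members were Axin2, Lef1, Tcf7, Sp5, Sp8, Nkd1, Dkk1, Notum, Rnf43 and Znrf3, listed as direct Wnt targets. The rule that lists them uses no measured value, but the list was drawn up with earlier results of these data known. The counts of members called are therefore descriptive. All 10 had a row among the 54134 rows of the count table, and all 10 were among the 12149 genes that passed the filter on low counts. The samples were 30 libraries of Bruce4 embryonic stem cell (ES-Bruce4) derivatives, 3 for each of 10 groups, wildtype or Nr6a1-/- at each of 5 stages. Cells at d2 had received FGF2 for 48 h. CHIR99021, an inhibitor of GSK3 that activates Wnt signalling inside the cell without a ligand, was then added, and cells were collected after 12 h (d2.5) and 24 h (d3). At d4 the cells had spent another 24 h in FGF2 and CHIR99021, and at d4G they had also received Gdf11, a TGF-beta family ligand of the tail bud, for those last 24 h. Every group therefore had FGF2, and every group after d2 had CHIR99021. The Nr6a1-/- cells were 1 CRISPR/Cas9 clone in which both alleles had lost the DNA-binding domain, so an effect of Nr6a1 and a property of that clone cannot be told apart.

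In the canonical Wnt pathway, a destruction complex built on Axin and Apc, with the kinase GSK3, marks beta-catenin for degradation. A Wnt ligand bound to a Frizzled receptor, or a GSK3 inhibitor such as CHIR99021, stops this, and beta-catenin enters the nucleus and works with TCF/LEF factors on target genes. Many targets restrain the pathway at its different levels. Axin2 is a scaffold of the destruction complex, Nkd1 binds Dishevelled, Dkk1 and Notum are secreted and block the co-receptor Lrp6 and the Wnt ligand, and Rnf43 and Znrf3 are membrane ubiquitin ligases that remove Frizzled receptors. Lef1 and Tcf7 are themselves TCF/LEF factors, and Sp5 and Sp8 are zinc finger factors that act with Wnt signals in the tail bud, where Wnt activity maintains NMPs. Because CHIR99021 acts below the receptor, inhibitors that work on ligands and receptors were measured here in cells whose pathway was switched on further down.

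The members lie at separate loci of the mm10 (GRCm38) genome. In GENCODE M21, Axin2 spans chr11:108920349-108950783 on the plus strand, Tcf7 chr11:52252371-52283014 on the minus strand, Notum chr11:120653788-120661175 on the minus strand, Rnf43 chr11:87662722-87735539 on the plus strand and Znrf3 chr11:5276324-5444847 on the minus strand. Lef1 spans chr3:131110471-131224356, Sp5 chr2:70474923-70477729, Sp8 chr12:118846329-118852576 and Nkd1 chr8:88521354-88594884, all on the plus strand, and Dkk1 spans chr19:30545863-30549665 on the minus strand. All 10 are protein-coding. RefSeq windows from 250 bases before to 50 bases after an annotated start (GRCm38) were matched for 8 members with 15 starts in all. Notum and Znrf3 had none here.

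TCF/LEF factors recognise a short A/T-rich core, and the windows were searched on both strands for 4 letter strings of that core, CTTTGAA and the strings that end in AT, TA or TT in place of its last AA. Of the 15 member windows, 4 held at least 1 of them, in Lef1, Sp5, Sp8 and Dkk1, whereas 16.9% of all 32851 RefSeq windows of that length did, so a single match is common. Sp5 and Dkk1 held 2 matches each, which 1.94% of all windows did. The matched stretches are shown, 29 bases each, because Sp5 and Dkk1 differed between genotypes in opposite directions at both d4 and d4G. Each is written 5′ to 3′ on the strand of the gene, with the match in capitals. A match is a description of letters and not a measured binding site.
Lef1, chr3:131156136-131156164, plus strand, 147 bases before a start inside the gene: caacctcagaaTACAAAGtaggattgcat
Sp5, chr2:70474690-70474718, plus strand, 222 bases before the start: ttcctagagatAACAAAGacactttgtca
Sp5, chr2:70474808-70474836, plus strand, 104 bases before the start: ggcaaggccccCTTTGATcaggaaaatcc
Sp8, chr12:118847171-118847199, plus strand, 51 bases before 1 of 3 starts, inside the gene: ctccgcggcacTTCAAAGccggagaggga
Dkk1, chr19:30549596-30549624, minus strand, 117 bases before a RefSeq start inside the GENCODE span of the gene: tcctcccaaagCTTTGAAatcccatcccg
Dkk1, chr19:30549577-30549605, minus strand, 98 bases before the same start: tcccatcccggCTTTGTTgtcttccctga

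Library totals ran from 1570714 to 3688197 counts with a median of 2366002, so 3 counts in a library corresponded to 0.829 to 1.91 CPM (counts per 1000000 counts of a library, scaled by TMM factors). At d2.5 the Nr6a1-/- libraries were deeper (2612446 to 2801158 counts) than the wildtype ones (1935182 to 2081982). The mean level of Nr6a1 itself was at no stage below wildtype in the Nr6a1-/- cells (94.8 ± 6.31 CPM against 85.7 ± 1.89 at d2; SD, n = 3), and since the libraries read the 3′ end of transcripts whereas the deletions lie in an internal exon, this count does not check the genotype. The wildtype d4 library replicate 2 stood apart in the summed level of 6 epiblast markers, 655 CPM against 97.2 and 81.4 in the other wildtype d4 libraries, and the d4 results are also given without it. Of these markers Dnmt3b read 516 CPM there against 71.1 and 68.7 CPM, and Fgf5 8.84 CPM against 0 and 0.300 CPM. NMP markers (T, Nkx1-2, Cdx2, Cdx4, Wnt3a, Fgf8 and Sox2) were all detected, with at least 1 count, in each of the 10 groups. At d2 some were near the floor, with Wnt3a at 3 counts over the wildtype and 1 over the Nr6a1-/- libraries. The labels number the replicates without saying whether they were separate differentiations, so p-values measure the spread between these libraries, which may be partly technical. All false discovery rates (FDR) are from edgeR's quasi-likelihood test, adjusted by Benjamini-Hochberg over all 12149 genes, and a call is an FDR under 0.05. The cells were measured in bulk, so a lower level in fewer cells and less RNA per cell cannot be told apart. Each d4 library was labelled with an index sequence that a d3 or d4G library also carries. The wildtype d4 libraries and Nr6a1-/- d4 replicate 1 share theirs with d4G libraries. Nr6a1-/- d4 replicates 2 and 3 share theirs with d3 libraries. Libraries that share an index cannot have been read in the same pool, and the labels do not name the pools. Stage, Gdf11 and pool therefore cannot be told apart in the changes from d3 to d4 and from d4 to d4G. Pool may also differ between the genotypes at d4, and between the Nr6a1-/- d4 replicates. Its part in the genotype differences at d4, and in those of the changes from or to d4, was not tested.

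The members did not move together between genotypes, and the set of members that differed changed with the stage. At d2, before CHIR99021, Axin2 and Dkk1 were lower in Nr6a1-/- cells and no member was higher, where 4.07% of all genes tested were called (1.35% higher and 2.72% lower). After 12 h of CHIR99021, 6 of the 10 members were higher and none lower, where 6.45% of all genes were called (2.86% higher and 3.59% lower): Axin2, Lef1, Tcf7, Sp5, Sp8 and Znrf3. After 24 h, 2 were higher, Lef1 and Sp5, with 10.8% of genes called (4.47% higher and 6.3% lower). At d4, Lef1, Sp5 and Znrf3 were higher and Nkd1, Dkk1 and Notum lower, with 18.9% of genes called (9.7% higher and 9.18% lower). At d4G, Lef1, Sp5 and Rnf43 were higher and Sp8, Nkd1 and Dkk1 lower, with 7.9% of genes called (3.28% higher and 4.63% lower).

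**Figure D1:**
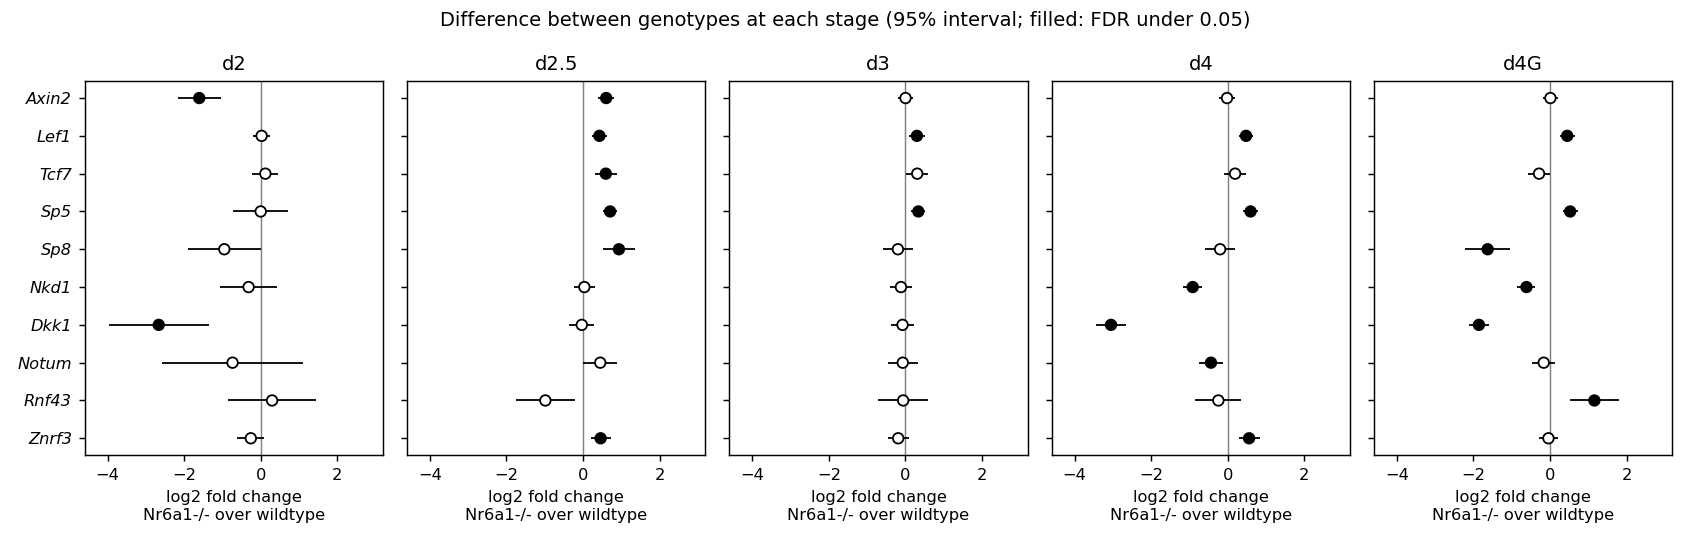
Difference between genotypes for each member at each stage, as log2 fold change of Nr6a1-/- over wildtype (x axis) with its 95% interval, filled where the FDR is under 0.05. The 6 filled points at d2.5 lie to the right of 0, from 0.43 for Lef1 to 0.94 for Sp8, whereas d4 has 3 on either side and Dkk1 farthest out at -3.05.

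The median log2 fold change of the 10 members between genotypes was 0.46 at d2.5 and negative at the other stages, -0.29 for d2, -0.06 for d3, -0.11 for d4 and -0.10 for d4G, beside a median over all genes tested between -0.01 and 0.02. The d2.5 median thus lay farthest from that of all genes, and the d2 median was the next farthest, in the other direction. At d2.5, 8 of 10 members were above 0, against 4 of 10 at each other stage. Sp5 and Lef1 were the members called higher at all 4 stages with CHIR99021, and no member was called lower at d2.5 or d3.

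**Figure D2:**
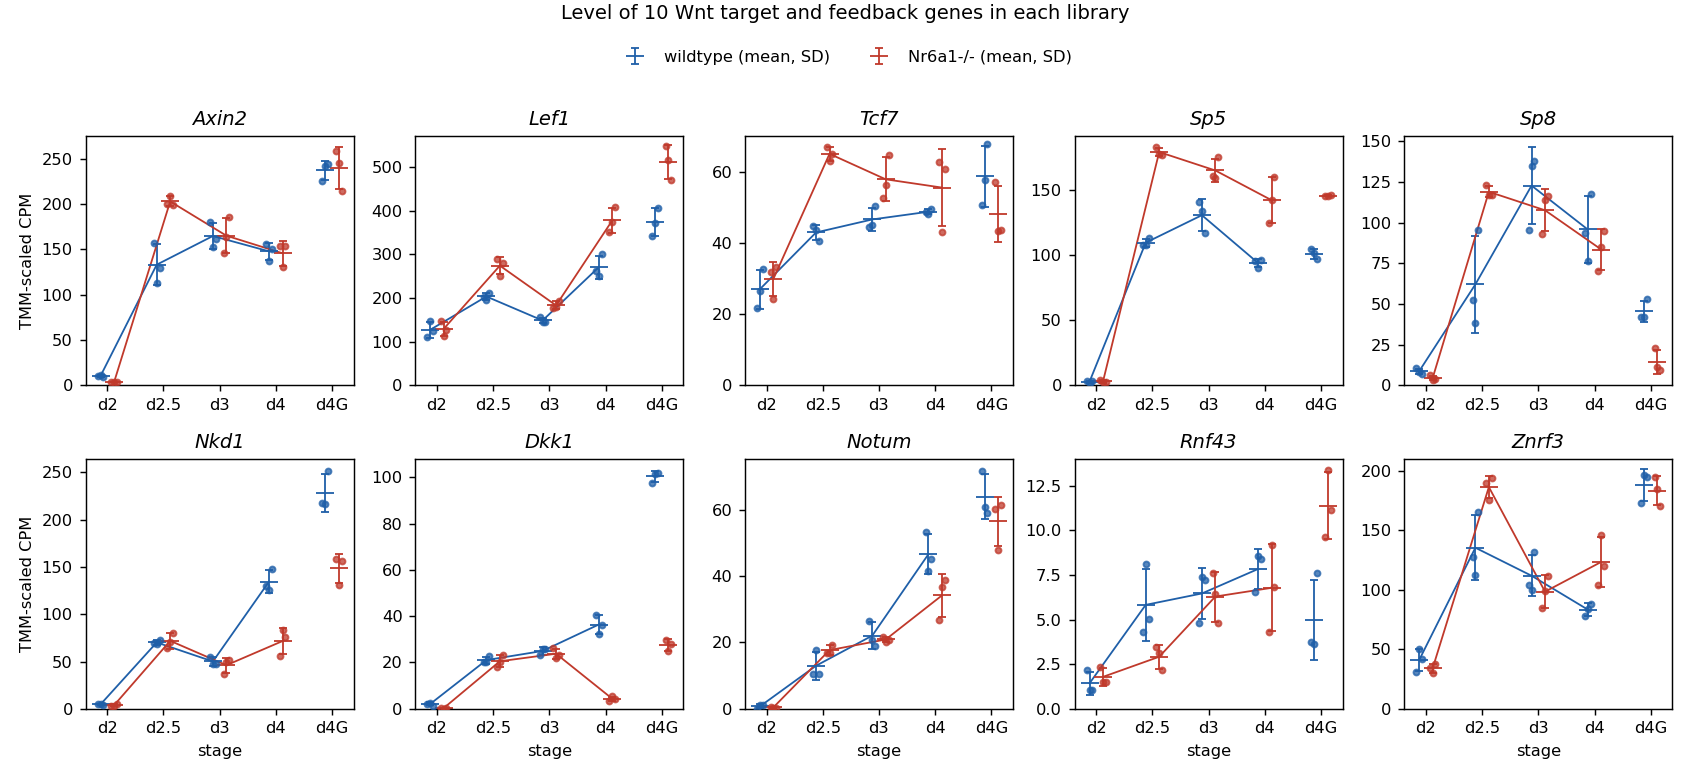
Level of each member in each library (y axis, TMM-scaled CPM, separate scale per gene) by stage (x axis), wildtype in blue and Nr6a1-/- in red, with the mean and SD of 3 libraries and lines joining the means without Gdf11. Axin2 meets between genotypes from d3 on (165 CPM in both), Sp5 stays higher in red from d2.5, and Dkk1 drops to 4.35 CPM in red at d4 while it reads 36.4 CPM in blue.

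Most of these genes were higher after CHIR99021 was added than at d2 in both genotypes. No group was kept without CHIR99021 after d2, so its addition and the 12 h or 24 h of further culture cannot be told apart. In wildtype cells all 10 members rose within 12 h, where 25.4% of all genes changed, 13.3% rising and 12.1% falling. In Nr6a1-/- cells 9 of 10 rose, where 24.1% of all genes changed, 12.9% rising and 11.2% falling, and Rnf43 was the exception (log2 fold change 0.71, 95% interval -0.25 to 1.67, edgeR FDR = 0.291). After 24 h, 9 members were above their d2 level in wildtype cells (37.4% of genes changed, 19.6% up and 17.8% down) and 10 in Nr6a1-/- cells (31.7% changed, 16.6% up and 15.1% down). The wildtype exception was Lef1 (log2 fold change 0.23, edgeR FDR = 0.0843), which was called without the wildtype d2 replicate 2 (edgeR FDR = 0.0195). The median log2 change over the members was 3.10 in wildtype and 4.51 in Nr6a1-/- cells after 12 h, and 3.54 and 4.11 after 24 h, beside medians over all genes of 0.00 to 0.02. The comparisons at 12 h and 24 h share the d2 libraries.

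**Figure D3:**
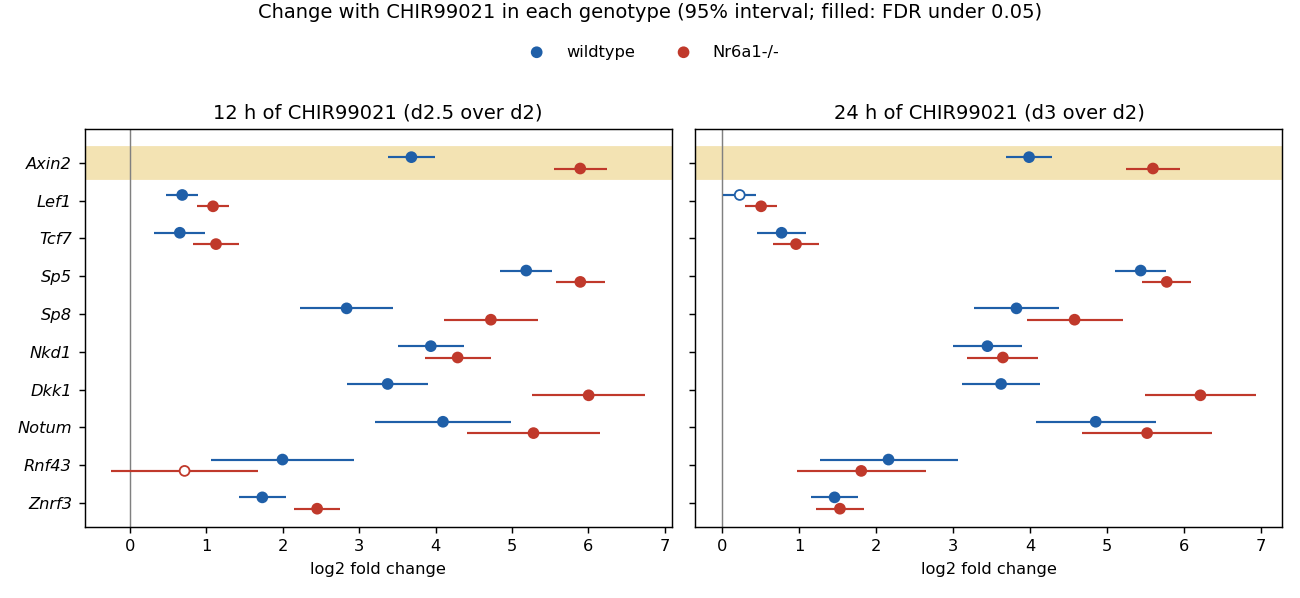
Log2 fold change over d2 at 12 h and 24 h of CHIR99021 (x axis) with its 95% interval, wildtype in blue and Nr6a1-/- in red, filled where the FDR is under 0.05, and with a shaded band where the genotypes' changes differed (FDR under 0.05). The band marks Axin2 alone, whose change was 3.68 in wildtype and 5.89 in Nr6a1-/- cells after 12 h.

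The test of the difference itself, the change in Nr6a1-/- cells minus that in wildtype cells, called Axin2 alone among the members at both times. Its difference in log2 change was 2.21 (SE 0.29, 95% interval 1.62 to 2.80, edgeR FDR = 1.63e-05) after 12 h, where 0.609% of all genes were called. It was 1.61 (SE 0.30, edgeR FDR = 0.000798) after 24 h, where 2.27% were called. Dkk1 had point differences of 2.63 and 2.59 (edgeR FDR = 0.106 and 0.067) and Sp8 one of 1.89 after 12 h (edgeR FDR = 0.0749), with wide intervals (1.28 to 3.98 for Dkk1 and 0.85 to 2.93 for Sp8 after 12 h). Sp8 was called after 12 h without the wildtype d2.5 replicate 3 (2.33, edgeR FDR = 0.00304), and Znrf3 (0.72, edgeR FDR = 0.119) without that library or the wildtype d2 replicate 1 (edgeR FDR = 0.0205 and 0.0389). After 12 h the intervals of Lef1 (0.11 to 0.70) and Tcf7 (0.02 to 0.92) also lay above 0, in the direction of Axin2, without a call (edgeR FDR = 0.206 and 0.378). For Sp5 the interval began at 0 (0.00 to 1.41), but its edgeR test gave an unadjusted p = 0.112 (FDR = 0.529). After 24 h the interval included 0 for each member other than Axin2 and Dkk1.

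Axin2, the scaffold whose transcript is the usual readout of canonical Wnt activity, differed by its largest factor before CHIR99021 was added. At d2 its counts were 24, 21 and 28 in the wildtype libraries (10.5, 11.2 and 9.64 CPM) and 7, 9 and 9 in the Nr6a1-/- libraries (3.30, 3.37 and 3.41 CPM). The Nr6a1-/- level was 0.329 times the wildtype one (log2 fold change -1.60, SE 0.28, edgeR FDR = 0.000195). After 12 h of CHIR99021 the order was turned round, with 157, 113 and 130 CPM in wildtype cells and 200, 209 and 199 CPM in Nr6a1-/- cells (log2 fold change 0.61, SE 0.10, edgeR FDR = 0.000124). Axin2 thus rose 12.8-fold in wildtype and 59.4-fold in Nr6a1-/- cells. From d3 on the genotypes overlapped, with means of 165 ± 14.1 and 165 ± 19.6 CPM at d3, 148 ± 9.47 and 146 ± 13.5 CPM at d4 and 237 ± 10.6 and 240 ± 23.0 CPM at d4G (wildtype first, SD, n = 3). The 95% intervals of the log2 difference at these stages lay within -0.22 to 0.21. The larger fold change of Axin2 after 24 h in Nr6a1-/- cells therefore came with an equal level at d3 and a lower one at d2.

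Sp5, a Wnt-induced zinc finger repressor, was near the floor at d2 (4 to 10 counts per wildtype library and 6 to 9 per Nr6a1-/- library) and rose 36.4-fold in wildtype and 59.5-fold in Nr6a1-/- cells within 12 h. Its d2.5 libraries read 108, 108 and 113 CPM in wildtype cells and 183, 178 and 177 CPM in Nr6a1-/- cells. These groups lay far apart compared with their spread (log2 fold change 0.71, SE 0.09, edgeR FDR = 1.85e-06). At d3 the wildtype libraries read 141, 134 and 117 CPM and the Nr6a1-/- libraries 161, 160 and 176 CPM. This was the smallest of its 4 differences (log2 fold change 0.34, edgeR FDR = 0.011), and it was not called without the wildtype replicate 3 (0.26, edgeR FDR = 0.121) or without the Nr6a1-/- replicate 3 (0.29, edgeR FDR = 0.0607). At d4 the levels were 95.9, 90.3 and 96.1 CPM against 125, 142 and 160 CPM (log2 fold change 0.60, edgeR FDR = 6.4e-06). With Gdf11 they were 105, 102 and 97.0 CPM against 145, 146 and 146 CPM (log2 fold change 0.53, edgeR FDR = 0.00015). Sp5 was higher in all 3 Nr6a1-/- libraries than in all 3 wildtype libraries at each of these 4 stages, whereas at d2 the groups overlapped (2.88 ± 0.678 and 3.04 ± 1.05 CPM). Over all genes tested, 12.4% had that order at d2.5 and 14.2% at d3, and the share at d4 and d4G was not taken.

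Sp8, the related factor needed for tail and limb outgrowth, moved in opposite directions at d2.5 and d4G. At d2.5 the wildtype libraries were spread (52.4, 38.1 and 95.6 CPM) and the Nr6a1-/- libraries were close together (123, 117 and 117 CPM). All 3 Nr6a1-/- libraries were above all 3 wildtype ones (log2 fold change 0.94, SE 0.20, edgeR FDR = 0.00248), with the wildtype replicate 3 nearest to them. At that stage 12.4% of all genes had all 3 Nr6a1-/- libraries above the wildtype ones. At d3 and d4 the groups overlapped, at 123 ± 23.5 and 108 ± 12.8 CPM and at 95.7 ± 20.5 and 83.4 ± 12.5 CPM (wildtype first). At d4G Sp8 read 41.9, 41.8 and 53.1 CPM in wildtype cells and 23.1, 11.5 and 9.44 CPM in Nr6a1-/- cells. The Nr6a1-/- level was 0.323 times the wildtype one (log2 fold change -1.63, SE 0.29, edgeR FDR = 0.000105).

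Lef1 and Tcf7, the TCF/LEF factors of the list, were already expressed at d2, and in wildtype cells they had the smallest log2 changes of the members over d2 after both 12 h and 24 h. Lef1 read 112, 147 and 124 CPM in wildtype cells and 147, 114 and 127 CPM in Nr6a1-/- cells at d2. These groups overlapped, and the log2 difference was 0.03 (95% interval -0.19 to 0.24). At d2.5 it read 203, 197 and 211 CPM against 290, 252 and 281 CPM (log2 fold change 0.43, edgeR FDR = 0.00443). At d3 all 3 Nr6a1-/- libraries (177, 180 and 194 CPM) were above the wildtype ones (156, 145 and 145 CPM), at the edge of the threshold (log2 fold change 0.30, edgeR FDR = 0.0485). That call was lost when any 1 of the 6 d3 libraries was left out (edgeR FDR = 0.0735 to 0.165). At d3, 14.2% of all genes had all 3 Nr6a1-/- libraries above the wildtype ones. At d4 and d4G the difference in Lef1 was larger again. The d4 libraries read 262, 250 and 300 CPM in wildtype cells and 351, 373 and 409 CPM in Nr6a1-/- cells (log2 fold change 0.48, edgeR FDR = 0.000251), and the d4G libraries 342, 372 and 407 CPM against 548, 515 and 471 CPM (log2 fold change 0.45, edgeR FDR = 0.00105). The genotype effect on Lef1 was thus between 1.23-fold and 1.40-fold at each stage with CHIR99021.

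Tcf7 differed between genotypes at d2.5 only among the 5 tests, with 44.8, 43.7 and 40.5 CPM in wildtype cells and 67.1, 63.0 and 65.1 CPM in Nr6a1-/- cells (log2 fold change 0.60, SE 0.14, edgeR FDR = 0.0071). At d3 its libraries also did not overlap (44.4 to 50.4 against 52.6 to 64.7 CPM), but the log2 difference of 0.31 was not called (edgeR FDR = 0.173), and at that stage 14.2% of all genes had all 3 Nr6a1-/- libraries above the wildtype ones and 14.3% below. At d2, d4 and d4G the groups overlapped, with log2 differences of 0.12, 0.19 and -0.29.

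Nkd1, which restrains the pathway at Dishevelled, overlapped between genotypes until d3 and then rose less in Nr6a1-/- cells. At d2.5 it read 69.6, 68.1 and 72.9 CPM in wildtype cells and 64.1, 71.1 and 80.5 CPM in Nr6a1-/- cells, with overlapping groups and a 95% interval of the log2 difference from -0.23 to 0.30. Between d3 and d4 it rose 2.70-fold in wildtype and 1.55-fold in Nr6a1-/- cells. At d4 the wildtype libraries read 130, 125 and 148 CPM and the Nr6a1-/- libraries 55.9, 83.2 and 75.8 CPM (log2 fold change -0.91, SE 0.12, edgeR FDR = 5.83e-07). Nkd1 remained lower in Nr6a1-/- cells with Gdf11, with 218, 216 and 252 CPM in wildtype against 159, 131 and 156 CPM (log2 fold change -0.62, edgeR FDR = 0.000267). Nkd1 lies on chromosome 8, whose 655 tested genes had a median log2 difference, Nr6a1-/- over wildtype, between -0.38 and -0.29 at the 5 stages. Which genotype's cells carry that shift cannot be told from the difference. Nkd1 was above that median until d3 (rank 393 of 655 from the lowest at d2) and at rank 73 from the lowest at d4. The part of that chromosome-wide shift in its d4 value was not tested.

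Dkk1, the secreted Lrp6 antagonist, had the largest genotype difference of any member. At d2 it was near the floor in both genotypes, with 5, 5 and 4 counts in the wildtype and 1, 0 and 1 counts in the Nr6a1-/- libraries. The ratio of these summed counts per depth, 14 against 2, was 7.35 with a 95% counting interval from 1.69 to 66.6. It was called at d2 (edgeR FDR = 0.0313), but not when the wildtype replicate 1 or 2 or any Nr6a1-/- replicate was left out (edgeR FDR = 0.0581 to 0.213). After 12 h of CHIR99021 Dkk1 read 20.0, 20.3 and 22.8 CPM in wildtype cells and 18.03, 20.3 and 23.3 CPM in Nr6a1-/- cells, and after 24 h 23.2, 25.8 and 26.0 CPM against 26.1, 21.8 and 23.4 CPM. The genotypes overlapped at both times, with 95% intervals of the log2 difference of -0.36 to 0.29 and -0.38 to 0.23. They then parted. By d4 Dkk1 had risen to 40.5, 32.3 and 36.3 CPM in wildtype cells and fallen to 3.47, 5.32 and 4.26 CPM in Nr6a1-/- cells, which is 331 against 29 counts over 3 libraries each (log2 fold change -3.05, SE 0.20, edgeR FDR = 1.06e-14). At d4G Dkk1 was higher in both genotypes, at 97.7, 102 and 102 CPM and at 29.8, 24.8 and 27.9 CPM. The difference was smaller but still there (log2 fold change -1.86, SE 0.13, edgeR FDR = 1.85e-13).

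Notum, the secreted enzyme that removes the lipid of Wnt ligands, was barely detected at d2 (0, 2 and 3 counts in wildtype and 1 count in each Nr6a1-/- library). It reached 10.5, 17.8 and 10.6 CPM in wildtype cells and 16.9, 16.8 and 19.3 CPM in Nr6a1-/- cells at d2.5, which overlapped. From summed counts, 78 against 5 in wildtype and 146 against 3 in Nr6a1-/- cells, its rise over d2 was 18.3-fold (95% counting interval 7.50 to 57.8) and 43.8-fold (14.7 to 215). At d4 it read 53.2, 41.4 and 45.0 CPM in wildtype cells and 26.9, 36.8 and 38.8 CPM in Nr6a1-/- cells. This difference (log2 fold change -0.44) was at the threshold (edgeR FDR = 0.0488). It was not called without wildtype replicate 1 or 3 or Nr6a1-/- replicate 1 or 2 (edgeR FDR = 0.0602 to 0.214). At d4G the groups overlapped (63.9 ± 6.81 and 56.4 ± 7.51 CPM).

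The Frizzled-removing ligases Rnf43 and Znrf3 differed at different stages. Znrf3 read 128, 113 and 165 CPM in wildtype cells and 190, 175 and 194 CPM in Nr6a1-/- cells at d2.5 (log2 fold change 0.46, edgeR FDR = 0.0239). This call was lost without wildtype replicate 1 or 2 or Nr6a1-/- replicate 1 or 3 (edgeR FDR = 0.0788 to 0.181). At d3 the groups overlapped (112 ± 17.3 and 98.4 ± 13.7 CPM). At d4 the wildtype libraries read 78.0, 83.7 and 88.3 CPM and the Nr6a1-/- libraries 104, 146 and 120 CPM (log2 fold change 0.56, SE 0.14, edgeR FDR = 0.00268). With Gdf11 the groups overlapped once more, at 188 ± 13.3 and 183 ± 12.1 CPM.

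Rnf43 had few counts after CHIR99021, 6 to 31 per library, and its intervals were wide. At d4G it read 3.72, 3.65 and 7.59 CPM in wildtype cells and 9.62, 13.4 and 11.2 CPM in Nr6a1-/- cells (log2 fold change 1.16, SE 0.32, edgeR FDR = 0.0147), and the call was lost without wildtype replicate 1 or 2 or Nr6a1-/- replicate 2 (edgeR FDR = 0.0711 to 0.118). At d2.5 it was lower in all 3 Nr6a1-/- libraries (3.45, 3.15 and 2.15 CPM against 4.29, 8.13 and 5.06 CPM) without passing the test (log2 difference -0.98, edgeR FDR = 0.13), where 12.7% of all genes had all 3 Nr6a1-/- libraries below the wildtype ones and 12.4% above. At d2, d3 and d4 the groups overlapped.

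Over the further day in FGF2 and CHIR99021, from d3 to d4, the members divided. In wildtype cells Lef1, Nkd1, Dkk1 and Notum rose and Sp5 and Znrf3 fell, where 21.1% of all genes changed (9.77% higher and 11.3% lower). In Nr6a1-/- cells Lef1, Nkd1 and Notum rose and Dkk1 fell, where 25.9% changed (13.6% higher and 12.3% lower). The test of the difference between these changes called 3 members, where 5.72% of all genes were called. Dkk1 rose 1.44-fold in wildtype and fell to 0.183 times its d3 level in Nr6a1-/- cells, a difference of -2.98 in log2 change (SE 0.26, edgeR FDR = 7.32e-10). Nkd1 rose less in Nr6a1-/- cells (difference -0.80, SE 0.19, edgeR FDR = 0.0078). Znrf3 fell to 0.745 times its d3 level in wildtype cells and read 1.25 times its d3 level in Nr6a1-/- cells (edgeR FDR = 0.0784 for the latter, and 0.0449 or 0.025 without the Nr6a1-/- d3 replicate 3 or d4 replicate 1), with a difference of 0.75 (SE 0.19, edgeR FDR = 0.015). The Znrf3 difference was not called without the wildtype d3 replicate 3, the Nr6a1-/- d3 replicate 1 or the Nr6a1-/- d4 replicate 2 (edgeR FDR = 0.0579 to 0.0786). The fall of Znrf3 in wildtype cells was likewise not called without the wildtype d3 replicate 3 or the wildtype d4 replicate 1 or 2 (edgeR FDR = 0.0532 to 0.194).

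Without the wildtype d4 replicate 2, the library with raised epiblast markers, 6 members were again called between genotypes at d4 and 3 in the test of the d3 to d4 difference. Dkk1 then differed by -3.15 on the log2 scale (edgeR FDR = 2.15e-14), Nkd1 by -0.98 (edgeR FDR = 8.69e-07) and Sp5 by 0.55 (edgeR FDR = 0.000204). These values were close to those with it. By the chi-square per gene given below, the library farthest from the rest of its group was the Nr6a1-/- d4 replicate 1. Leaving out that library lost the d4 call of Notum (edgeR FDR = 0.214) and kept those of Lef1, Sp5, Znrf3, Nkd1 and Dkk1.

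**Figure D4:**
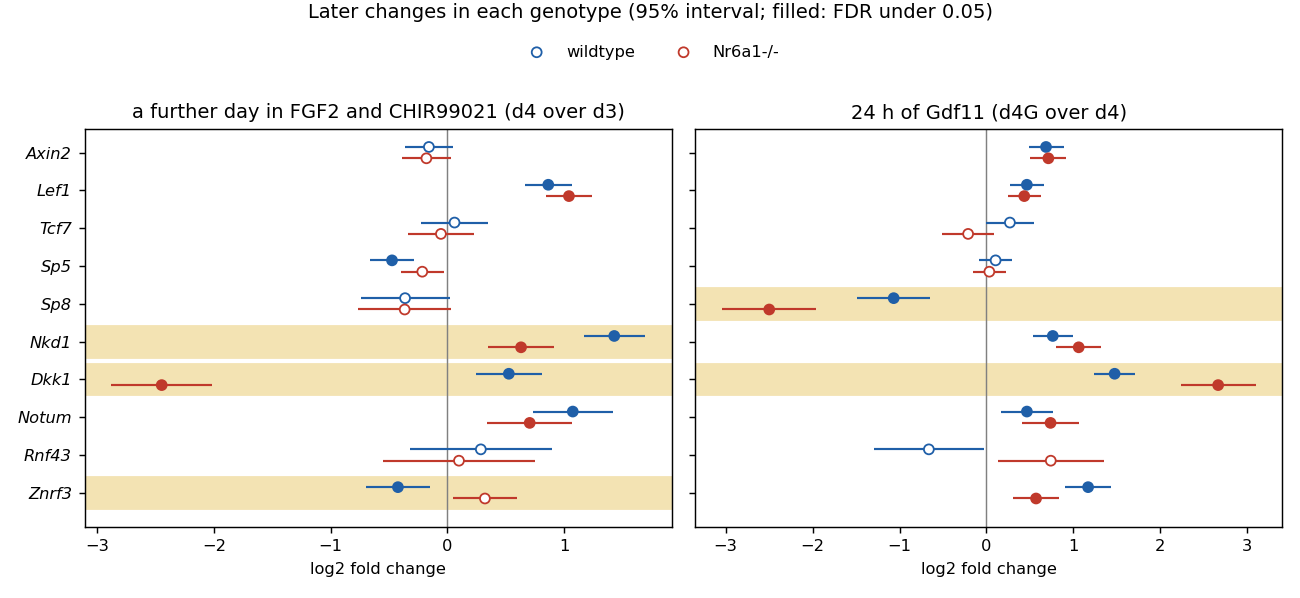
Log2 fold change (x axis) with its 95% interval over the last day in FGF2 and CHIR99021 (d4 over d3) and with Gdf11 (d4G over d4), wildtype in blue and Nr6a1-/- in red, filled where the FDR is under 0.05, and with a shaded band where the genotypes' changes differed (FDR under 0.05). Dkk1 moves in opposite directions from d3 to d4 (0.53 and -2.45) and Sp8 falls further with Gdf11 in red (-2.50) than in blue (-1.07).

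Most of the feedback genes were higher at d4G than at d4 in both genotypes, a change in which Gdf11 and pool cannot be told apart. Axin2, Lef1, Nkd1, Dkk1, Notum and Znrf3 rose and Sp8 fell in wildtype cells, where 28.8% of all genes changed (14.3% higher and 14.5% lower). In Nr6a1-/- cells these 6 members also rose and Sp8 also fell, where 18% of all genes changed (8.45% higher and 9.59% lower). The rise of Axin2 was 1.61-fold in wildtype and 1.64-fold in Nr6a1-/- cells (difference in log2 change 0.03, 95% interval -0.26 to 0.32). The rise of Notum in wildtype cells, 1.38-fold, was not called without the wildtype d4 replicate 2 or the wildtype d4G replicate 1 (edgeR FDR = 0.0916 and 0.0862). These changes use the same d4 libraries as the comparison of genotypes at d4.

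The change with Gdf11 differed by genotype for 2 members, where 2.66% of all genes were called. Sp8 fell to 0.477 times its d4 level in wildtype and to 0.177 times in Nr6a1-/- cells (difference in log2 change -1.43, SE 0.35, edgeR FDR = 0.0154). It was not called without the Nr6a1-/- d4 replicate 3, the wildtype d4G replicate 3 or the Nr6a1-/- d4G replicate 2 or 3 (edgeR FDR = 0.0533 to 0.109). Dkk1 rose 2.78-fold in wildtype and 6.35-fold in Nr6a1-/- cells from its lower d4 level (difference 1.19, SE 0.26, edgeR FDR = 0.00469). Rnf43 had opposite point changes, -0.66 in wildtype and 0.74 in Nr6a1-/- cells, and neither these nor their difference of 1.40 was called (edgeR FDR = 0.111, 0.0846 and 0.0767). That difference was called without the Nr6a1-/- d4 replicate 2 (edgeR FDR = 0.0461) or the wildtype d4G replicate 3 (edgeR FDR = 0.024). The rise of Rnf43 in Nr6a1-/- cells was called without the former (edgeR FDR = 0.0372) and its fall in wildtype cells without the latter (edgeR FDR = 0.029). Znrf3 rose 2.25-fold in wildtype and 1.49-fold in Nr6a1-/- cells, a difference of -0.60 (edgeR FDR = 0.0787) that was called without the Nr6a1-/- d4 replicate 1 (edgeR FDR = 0.0149), and also with no filter on low counts, with thinning and with the replicate number as a block (edgeR FDR = 0.015, 0.0195 and 0.0458).

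Marker levels of other cell types moved with genotype at the same stages. Summed paraxial mesoderm markers (Tbx6, Msgn1, Meox1, Tcf15, Foxc1 and Foxc2, all 6 detected) were 136 to 154 CPM in wildtype cells and 448 to 475 CPM in Nr6a1-/- cells at d4. Endoderm markers (Sox17, Foxa2, Foxa1, Cer1, Spink1 and Gata4) summed to 98.4 to 146 CPM in wildtype cells and 3.83 to 7.80 CPM in Nr6a1-/- cells at d4, with 5 of 6 detected and Cer1 at 0. They were lower in Nr6a1-/- cells at d2 as well (2.82 to 7.59 CPM against 31.0 to 43.0 CPM, 4 of 6 detected, Foxa1 and Cer1 at 0). Neural markers (Sox1, Pax6, Irx3, Neurog2, Olig2 and Pax3) summed to 25.8 to 36.6 CPM in wildtype cells and 3.47 to 5.54 CPM in Nr6a1-/- cells at d4, with Olig2 at 0 in the latter. NMP markers, all 7 detected, summed to 464 to 483 CPM in wildtype cells and 230 to 269 CPM in Nr6a1-/- cells at d4G, where Sp8 and Dkk1 were lower. Cdx4 gave the largest part of that difference (175 ± 12.1 against 53.2 ± 6.04 CPM), while Wnt3a was higher (12.8 ± 3.16 against 22.5 ± 8.51 CPM). Cdx4 and Fgf8 are also counted among the other Wnt targets below and Wnt3a among the ligands, so the NMP list overlaps the pathway lists. Epiblast markers, all 6 detected, summed to 2429 to 2492 CPM in wildtype cells and 3151 to 3227 CPM in Nr6a1-/- cells at d2, where Axin2 was lower. Dnmt3b made up most of these sums, at 1690 to 1763 CPM against 2383 to 2433 CPM. Lateral mesoderm markers stayed between 0.506 and 13.5 CPM up to d4 and reached 24.2 to 62.8 CPM in wildtype cells and 21.02 to 58.7 CPM in Nr6a1-/- cells at d4G. Fibroblast markers summed to 16.5 to 74.8 CPM over all libraries, with Lum at 0 in 9 of the 10 groups. At d2.5, where 6 members were higher, NMP markers summed to 487 to 510 CPM in wildtype libraries against 604 to 645 CPM, epiblast markers to 679 to 699 CPM against 794 to 849 CPM, endoderm markers to 56.7 to 67.1 CPM against 4.55 to 11.1 CPM (5 of 6 detected, Cer1 at 0), neural markers to 25.8 to 31.9 CPM against 11.9 to 16.8 CPM, and paraxial mesoderm markers to 7.59 to 9.15 CPM against 2.504 to 6.52 CPM (4 of 6 detected, Msgn1 and Foxc2 at 0). At d3 the NMP markers were also higher in Nr6a1-/- libraries (1105 to 1237 CPM against 844 to 889 CPM), opposite to their order at d4G, and endoderm markers were lower (4.84 to 10.7 CPM against 94.6 to 102 CPM, Foxa1 and Cer1 at 0). Dnmt3b again made up most of the epiblast sums at d2.5, at 429 to 468 CPM in wildtype and 597 to 645 CPM in Nr6a1-/- libraries. The sum of the remaining epiblast markers at d2.5 was lower in every Nr6a1-/- library than in every wildtype library. The higher epiblast total at that stage thus rested on Dnmt3b. The part of these cell types in the member differences was not tested.

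The rest of the pathway gives the setting in which the members changed. Of 106 other listed pathway genes 79 were tested, and in Nr6a1-/- cells 1 was higher and 1 lower before CHIR99021, where 4.07% of all genes were called. At d2.5 the counts were 11 higher and 2 lower (6.45% of all genes), for d3 they were 10 higher and 4 lower (10.8%), without Gdf11 at d4 20 higher and 10 lower (18.9%), and with it 10 higher and 7 lower (7.9%). Of the 13 tested ligands and secretion genes, 7 were higher and 1 lower at d4 (61.5%, beside 18.9% of all genes), with a median log2 difference of 0.62. Wnt3a, the NMP-maintaining ligand, read 5.77 ± 1.68 CPM in wildtype cells and 32.1 ± 0.682 CPM in Nr6a1-/- cells at d4 (log2 fold change 2.47, edgeR FDR = 1.78e-09). Wnt8a, an early posterior ligand, had 6 counts over the wildtype and 106 over the Nr6a1-/- d4 libraries, a ratio of 24.3 (95% counting interval 10.8 to 67.7). Wnt7a had 3 counts against 141, a ratio of 64.6 (21.7 to 317). The ligands that were higher at d4 were thus measured at the stage at which Dkk1, Nkd1 and Notum were lower.

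**Figure D5:**
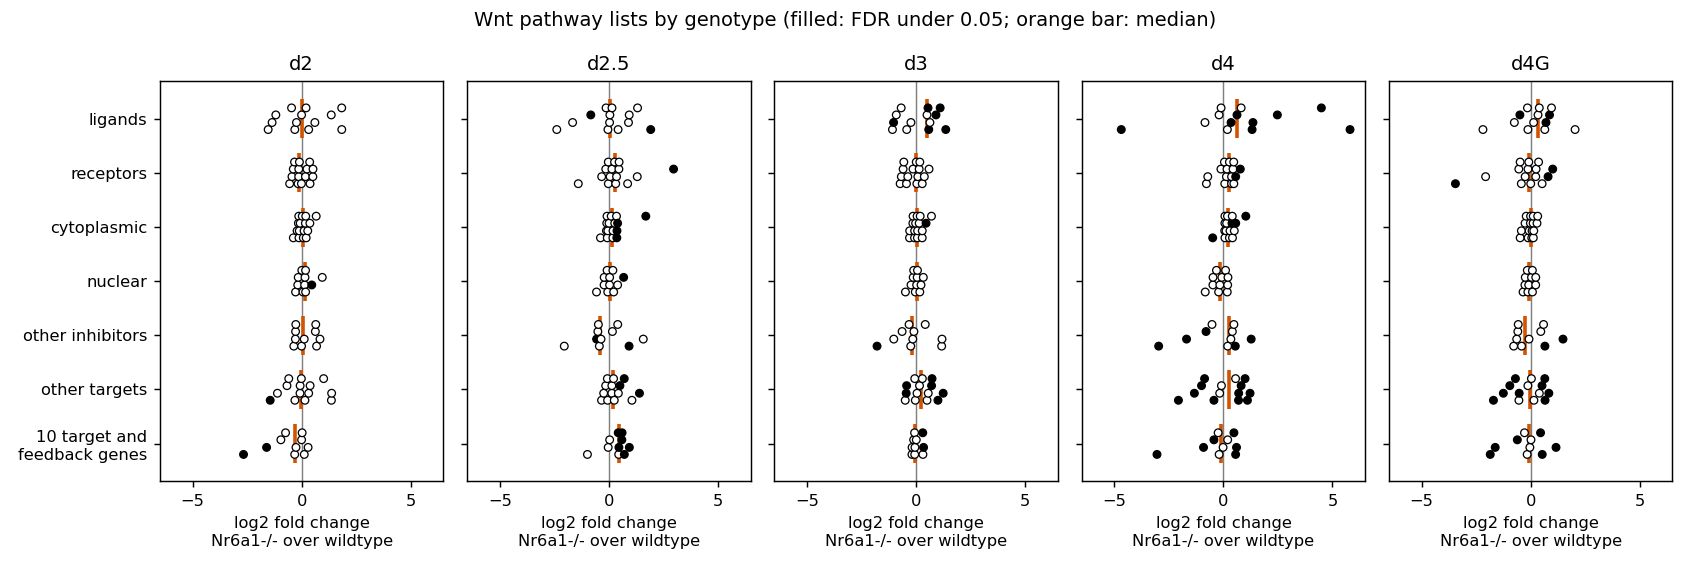
Log2 fold change of Nr6a1-/- over wildtype (x axis) for each tested gene of 6 Wnt pathway lists and the 10 members at each stage, 1 point a gene, filled where the FDR is under 0.05, with an orange bar at the list's median. The ligands spread widest at d4, from -4.69 to 5.81, while the nuclear factors stay within -0.84 and 0.21 there.

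Receptors and the cytoplasmic and nuclear machinery had calls at some stages and none at others. Of 15 tested receptor genes, none was called at d2 or d3, 1 was higher at d2.5, 2 were higher at d4, and 2 were higher and 1 lower at d4G. The receptor share was 6.67% at d2.5, beside 6.45% of all genes. The d4 share was 13.3%, beside 18.9% of all genes, and the d4G share 20%, beside 7.9%. Fzd10, a Frizzled receptor, read 347 ± 88.6 CPM in wildtype cells and 604 ± 162 CPM in Nr6a1-/- cells at d4G (log2 fold change 0.80, edgeR FDR = 0.0016), and Fzd7 read 21.9 ± 4.25 and 44.1 ± 3.42 CPM there (log2 fold change 1.01, edgeR FDR = 0.000851). Lgr4, a receptor for R-spondins, was higher at d4 (log2 fold change 0.77, edgeR FDR = 0.00302). Of 16 tested cytoplasmic components, 4 were higher at d2.5 and none lower, 1 was higher at d3, and 3 were higher and 1 lower at d4, which is 25% at d2.5 and at d4 beside 6.45% and 18.9% of all genes. The d3 share was 6.25%, beside 10.8% of all genes. Frat1, which binds GSK3, read 3.96 ± 1.29 CPM in wildtype cells and 12.97 ± 0.418 CPM in Nr6a1-/- cells at d2.5 (log2 fold change 1.69, edgeR FDR = 0.000675), the stage at which 6 members were higher. Apc, the other scaffold of the destruction complex, was higher (log2 fold change 0.56, edgeR FDR = 0.0104) and Amer1, which recruits Apc to the membrane, lower (log2 fold change -0.49, edgeR FDR = 0.022) at d4. Of 11 tested nuclear factors, Tcf7l1, a TCF that mostly represses, was the 1 called at d2 (log2 fold change 0.47, edgeR FDR = 0.0482), and Tcf7l2 the 1 called at d2.5 (log2 fold change 0.68, edgeR FDR = 0.00272), both higher in Nr6a1-/- cells, and none was called at d3, d4 or d4G. Each of these single calls was 9.09% of the nuclear list, beside 4.07% of all genes at d2 and 6.45% at d2.5.

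Other inhibitors and other targets were called in both directions. Of 10 tested inhibitors, 2 were higher and 3 lower at d4 (50%, beside 18.9% of all genes), and 2 were higher at d4G (20%, beside 7.9%). Frzb, a secreted Wnt-binding protein, was higher at d4G (8.49 ± 1.38 against 23.5 ± 6.74 CPM, log2 fold change 1.48, edgeR FDR = 0.000229), Draxin at d4 (log2 fold change 1.27, edgeR FDR = 0.000822), and Dkk4, a relative of Dkk1, at d2.5 (log2 fold change 0.93, edgeR FDR = 0.00516). Of 14 other targets, 6 were higher and 5 lower at d4 (78.6%, beside 18.9% of all genes). At d2.5, 3 were higher, none was lower and 11 were not called (21.4%, beside 6.45%). For d3 the counts were 4 higher and 2 lower (42.9%, beside 10.8%), and for d4G 4 higher and 5 lower (64.3%, beside 7.9%). Gbx2, a homeobox gene of the early posterior epiblast, had the same signs as Axin2 at d2 and d2.5. It was lower in Nr6a1-/- cells at d2 (15.7 ± 1.53 against 43.3 ± 8.02 CPM, log2 fold change -1.44, edgeR FDR = 3.07e-07) and higher at d2.5 (140 ± 9.56 against 52.8 ± 4.48 CPM, log2 fold change 1.40, edgeR FDR = 9.56e-10), and it stayed higher at d3. Cdx4 and Fgf8, both tail bud genes, were lower at d4G (log2 fold change -1.71, edgeR FDR = 2.05e-14, and -1.26, edgeR FDR = 4.97e-06), as Sp8 was.

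Genes with a profile most like that of Axin2 were ranked among 9730 genes by the root mean square difference of their 10 centred group means of log2 CPM over the 30 libraries. Fzd10 was at rank 2 (0.48 on the log2 scale) and Sp5 at rank 3 (0.51). Sp5 was thus the nearest member, with Notum at rank 8, Nkd1 at 10 and Dkk1 at 29. Sp8 was at rank 78, Znrf3 at 85 and Rnf43 at 209, while Lef1 and Tcf7, which were expressed before CHIR99021, were at ranks 409 and 560. This ranking is a description of 10 group means that share libraries and depth.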

How the data were processed

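RNA of 30 libraries was primed at the poly(A) tail with an index and a molecular identifier and read at the 3′ end. The authors aligned the reads with STAR (build mm10 in the submitters' processing notes) and deposited whole-number counts per gene. The annotation, the counting tool, the strand setting and whether identifiers were collapsed are not given in the sources used here. The deposited comparison tables, which hold the authors' own fold changes, p-values, FDR and CPM, were not used.

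Genes with over 10 counts and over 2 CPM in 2 libraries of a group were kept (12149 of 54134 rows, at least 99.2% of each library's counts). A single model of the 10 groups was fitted with edgeR 4.0.16 (TMM factors, glmQLFit and glmQLFTest, two-sided, 20 residual degrees of freedom) in R 4.3.3, with Benjamini-Hochberg adjustment over all genes tested. The 17 comparisons were genotype at each stage, each change within a genotype, and the differences between those changes. The code was tested on simulated data. Ratios of summed counts have exact 95% intervals that cover counting error only, while the other intervals come from the model and include the spread between libraries. For genes with few counts, such as Sp5 at d2, the model intervals can be narrower than the p-value of the test implies. Replicates of a group differed by more than sampling noise (chi-square per gene 1.45 to 6.68). The highest values were those of Nr6a1-/- d4 replicate 1, 5.64 with replicate 2 and 6.68 with replicate 3. Nr6a1-/- d4 replicates 2 and 3 gave 2.58. The replicate numbers are shared between genotypes, but deviations of same-numbered libraries did not correlate (r from -0.11 to 0.06), so they were not used as pairs.

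The members, the pathway lists and the marker lists were chosen with earlier results of these data known. Named were all members, up to 3 called genes of each pathway list with the largest fold change between genotypes at any stage and a group mean of at least 10 CPM, and, of the 5 genes most like Axin2, 2, since the others are not reported here. The alternatives were RLE factors, no factors, no filter, thinning to the smallest total, only the libraries compared, DESeq2 1.42.0, a replicate block and leaving out each library. GENCODE M21 gave positions and RefSeq (GRCm38) the start windows.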

Additional observations from a re-analysis of the deposited data

Results flagged for a closer look

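Among the 10 members, 7 changes differed between the genotypes by the test of the difference itself (log2 change in Nr6a1-/- cells minus that in wildtype cells, edgeR FDR under 0.05). Axin2 rose further over d2 in Nr6a1-/- cells, by 2.21 (edgeR FDR = 1.63e-05) after 12 h and by 1.61 (edgeR FDR = 0.000798) after 24 h of CHIR99021. From d3 to d4 the difference was -2.98 for Dkk1 (edgeR FDR = 7.32e-10), -0.80 for Nkd1 (edgeR FDR = 0.0078) and 0.75 for Znrf3 (edgeR FDR = 0.015). With Gdf11 it was -1.43 for Sp8 (edgeR FDR = 0.0154) and 1.19 for Dkk1 (edgeR FDR = 0.00469). The d4 libraries enter both of the last groups of differences, so the values of Dkk1, -2.98 and 1.19, share libraries. Over all genes, this test called 0.609% after 12 h, 2.27% after 24 h, 5.72% from d3 to d4 and 2.66% with Gdf11. The Znrf3 call was kept in 16 of 19 alternatives and the Sp8 call in 15 of 19, the others in all 19.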

How the results depend on the processing

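Of 170 member results 91 were called. Of the 1223 alternatives run for called results, 1174 kept the direction and the call, 49 lost the call and 0 turned the direction. Of 1216 alternatives run for results that were not called, 25 made a call. Between genotypes at d2, the 2 called members became 1 with no filter, thinning or DESeq2, and 1 to 2 with 1 library left out, where Dkk1 was the call lost. The count was also 1 with only the libraries compared, where Dkk1 did not pass the filter and was not tested. At d3 the 2 called members became 1 with RLE factors or DESeq2, and 0 to 1 with 1 library left out. At d2.5 thinning to the smallest total, which evens out the deeper Nr6a1-/- libraries, left 5 of 6 calls. For the difference between genotypes after 12 h of CHIR99021, the 1 called member became 3 with no filter and 2 with DESeq2, and 1 to 3 with 1 library left out. For the Gdf11 difference the 2 called members became 1 to 3 with 1 library left out, and 3 with no filter, thinning or the replicate block, which added Znrf3. The d4 call of Notum was lost under 6 of the 7 alternatives other than leaving out a library, with RLE factors the exception. With the replicate number as a block (replicate block) the members called for the difference after 12 h of CHIR99021 were 2 in place of 1, with Sp8 added. The block also added Znrf3 for d4 over d3 in Nr6a1-/- cells and lost Notum between genotypes at d4. The pairing it assumes was not seen in the deviations. The causes were not tested. At 1570714 to 3688197 counts per library, genes with a few counts, such as Dkk1 and Notum at d2 and Rnf43 throughout, could show only large differences.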
